A study of Mus musculus with 24 samples.

Results

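The data described here are the libraries of an adult mouse hypothalamic cell line that received dose label 2 or 3 of mogroside V in high glucose, set against the high-glucose control. Mogroside V is the main sweet triterpene glycoside of monk fruit. The members were chosen by sample title: the titles HG2 and HG3 gave the treated libraries and HGC gave the controls. All 56946 lines agreed between the file of HG2 replicate 3 and that of HG3 replicate 2, so this library, with 3272671 gene counts, was counted once. This left 5 treated libraries and 3 controls, which is 8 of the 23 distinct libraries among the 24 files of the series.

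The series measured polyadenylated RNA in 8 groups of 3 libraries. All groups share the cell line. The controls, HGC in high glucose and NGC in normal glucose, have no dose number in their titles. HG1, HG2 and HG3 are high glucose with dose labels 1 to 3, and NG1, NG2 and NG3 are normal glucose with the same labels. The design text lists 15, 60 and 160 µM, but which of them each number stands for, the glucose concentrations, the exposure time, the passage and whether replicates were separate cultures are not given in the sources used here. P-values therefore measure the spread between these libraries, which may be technical.

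Gene counts ranged from 3272671 to 3915059 in the 5 treated libraries, from 3508021 to 4222354 in HGC and from 3272671 to 7773074 over all 23. Reads from mitochondrial genes took 6.85 to 7.33% of gene counts in the treated libraries and 6.81 to 7.05% in HGC. Among the high-glucose libraries, HGC replicate 2 lay lowest on the second principal component of all libraries, at -20.2. HG1 replicates 1 and 2 lay highest on the third, at 24.5 and 27.5, where the 5 treated libraries lay between -21 and 2.3. In normal glucose NG3 replicate 3 lay far from all others.

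High glucose is known to raise expression of genes such as Txnip through glucose-sensing transcription factors, and hypothalamic neurons read glucose, insulin and leptin to set feeding and energy use. Sweet compounds can act on the Tas1r2 and Tas1r3 taste receptor, which is also found outside the tongue. The labelled cell type was checked against its markers. The neuronal tubulin gene Tubb3 averaged 54.4 normalised counts (CPM, scaled to library size) in HGC and 55.9 in the treated libraries, the neuronal microtubule-associated gene Map2 45.3 and 39.9, and the adhesion molecule gene Ncam1 381 and 374. The synaptic vesicle fusion gene Snap25, the GABA neuron genes Gad1 and Slc32a1 and the catecholamine gene Th had no count in any of the 8 libraries. The mature neuron gene Rbfox3 had 3 counts in all.

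Some genes typical of mesenchymal cells were far more abundant. The collagen gene Col1a1 averaged 1437 CPM in HGC and 1549 in the treated libraries, and smooth muscle actin Acta2 1921 and 2015. The intermediate filament gene Vim, listed here with the astrocyte and tanycyte markers, averaged 3094 and 2998 CPM. Other members of the fibroblast and pericyte list differed widely in level. S100a4 averaged 685.5 and 745.5 CPM, Col3a1 511.6 and 505.6, and Pdgfrb 307.7 and 253.1. Cspg4 averaged 41.07 and 46.78 CPM, Pdgfra 39.3 and 37.81, and Thy1 38.5 and 41.69. Dcn averaged 11.7 and 7.66 CPM, and Lum, Fap and Rgs5 had 3, 7 and 36 counts in all. The summed level of 23 neuron markers ranged from 496 to 559 CPM in the treated libraries and from 509 to 560 in HGC. These ranges overlapped. Most of the sum was Ncam1 (380.9 CPM in HGC and 374.2 in the treated libraries), and 8 of the 23 had enough counts to be tested. The summed level of 12 fibroblast and pericyte markers ranged from 4924 to 5504 and from 4713 to 5254. Of 29 hypothalamic peptide and receptor genes 13 had no count, among them the feeding peptide gene Npy. The neuronal identity in the labels thus rests here on some cytoskeletal and adhesion genes, while defining synaptic and transmitter genes were absent or near 0.

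The first comparison asks whether dose labels 2 and 3 changed the transcriptome in high glucose. No gene passed the threshold in HG2 and HG3 pooled against HGC. At an adjusted p of 0.05, edgeR's quasi-likelihood test called 0 of 12940 genes (0%), and DESeq2 also called 0. At an unadjusted p under 0.05 edgeR gave 820 genes (6.34%), of which 377 were higher in the treated libraries (2.91%) and 443 lower (3.42%), and DESeq2 gave 906. The 5 treated libraries did not overlap the 3 controls in 610 genes (4.71%). With HGC replicate 1 left out 1 gene was called, the matrix protease gene Adamts1. Fitted on the groups compared alone, 8 genes were called: Adamts1, Clk1, Id3, Psap, Snhg5, Gm15536, Gm4997 and 1 without a symbol. With no low-count filter 4 were called: Adamts1, Clk1, Neat1 and the same gene without a symbol.

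Differences of a given size could be bounded for most genes. The 95% interval of the log2 difference lay within 1 of 0 for 9611 genes, which is 74.3% of those tested. Among the 3954 genes of at least 50 CPM this held for 3929, or 99.4%, and the interval's median width to either side was 0.25. For those 3929 genes a change of 2-fold or more lay outside the interval. Each interval is for its gene alone, so over many genes some would miss the true value. The intervals rest on the spread between these libraries, which may be technical. Genes of low level were measured less closely, and a change in them was not detectable at this depth unless large.

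**Figure D1:**
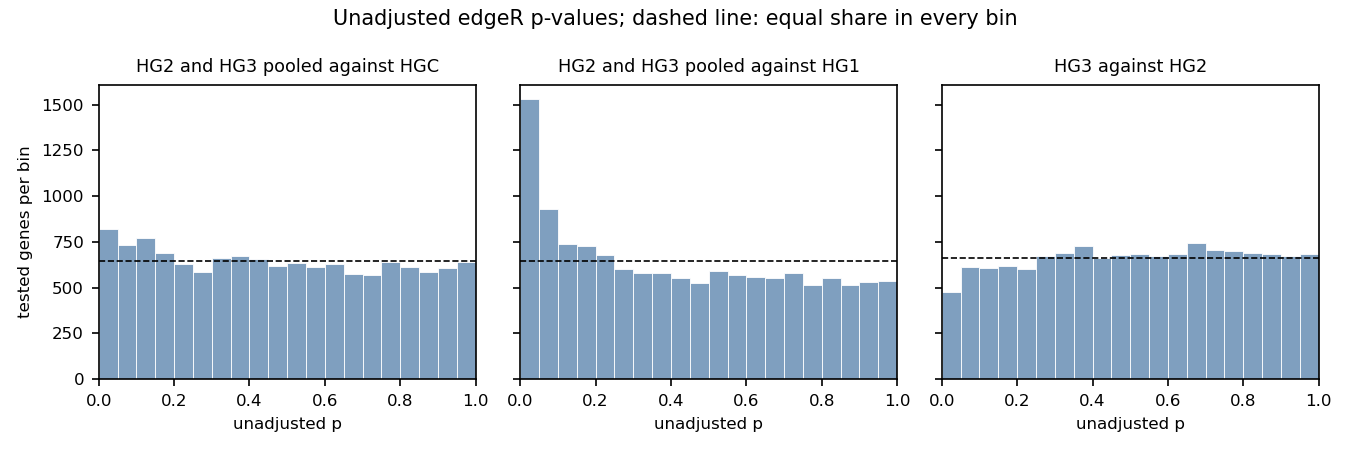
Number of tested genes in each of 20 bins of unadjusted edgeR p-value, for HG2 and HG3 pooled against HGC, for the same libraries against HG1 and for HG3 against HG2. The dashed line is an equal share in every bin. The lowest bin holds 820, 1534 (11.9%) and 477 genes.

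The lowest p-value belonged to Adamts1, a secreted metalloprotease gene that cleaves matrix proteoglycans. Its level was 243, 315 and 365 CPM in HGC and 176, 208, 209, 212 and 191 CPM in the treated libraries. Each treated library lay below each control, and HG1, at 257, 321 and 274 CPM, overlapped the controls. The log2 difference was -0.63 ± 0.12 (standard error), from 308 ± 61.7 CPM (SD, n = 3) to 199 ± 15.4 CPM (SD, n = 5), with an unadjusted p of 1.13e-05 and an edgeR adjusted p of 0.147. Fitted separately, with the shared library left out, HG2 gave -0.68 and HG3 -0.61 against the same controls. The adjusted p ranged from 2.35e-05 with no low-count filter to 0.805 without HGC replicate 3.

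Cxcl1, a neutrophil-attracting chemokine gene, stood at 35.6, 33.3 and 41.1 CPM in HGC and at 26.1, 22.1, 21.01, 24.9 and 20.3 in the treated libraries. The groups did not overlap, and the log2 difference was -0.68 ± 0.16 (edgeR adjusted p = 0.479). In normal glucose the control mean of Cxcl1 was 21.6 CPM, so the treated high-glucose libraries lay near the normal-glucose level. HGC against NGC itself gave a log2 difference of 0.76 for this gene (edgeR adjusted p = 0.00892), and it shares its HGC libraries with the comparison described here.

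Id3, an inhibitor of basic helix-loop-helix transcription factors and a target of bone morphogenetic protein signalling, was at 1229, 1322 and 1424 CPM in HGC. The treated libraries held 950, 1068, 952, 1021 and 1082 CPM of Id3, all below the controls, with a log2 difference of -0.39 ± 0.09 (edgeR adjusted p = 0.479, and 0.0457 to 0.846 over the alternatives). Dusp1, which was taken from the list of ERK feedback regulators, a phosphatase gene that switches off MAP kinases, was at 335, 221 and 497 CPM in HGC and at 151, 194, 152, 182 and 116 CPM in the treated libraries. The groups did not overlap, although the controls differed among themselves by more than 2-fold, and the log2 difference was -1.14 ± 0.30 (edgeR adjusted p = 0.567). Dusp1 was at 167, 186 and 170 CPM in HG1 as well, inside the treated range.

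The cAMP-responsive repressor gene Crem had 15.9, 14.7 and 13.4 CPM in HGC. It had 6.30, 8.82, 7.32, 7.14 and 9.73 CPM in the treated libraries, below each control, and 13.5, 14.4 and 13.1 in HG1. The log2 difference to HGC was -0.89 ± 0.23 (edgeR adjusted p = 0.544). Snhg5, a small nucleolar RNA host gene, averaged 99.1 CPM in HGC and 68.7 in the treated libraries, again with no overlap (-0.53 ± 0.12, edgeR adjusted p = 0.358, and 0.0457 to 0.846 over the alternatives). In normal glucose Snhg5 was lower at these dose labels too, at 89.3 CPM in NGC, 65.6 in NG2 and 69.4 in NG3. The log2 difference there was -0.41 ± 0.11 (edgeR adjusted p = 0.103). Mcat, a mitochondrial fatty acid synthesis gene, averaged 15.9 and 8.80 CPM, and Mark1, a microtubule affinity kinase gene, 58.6 and 42.2 CPM, both without overlap.

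RefSeq promoter windows are shown for Adamts1, Cxcl1, Id3 and Dusp1, 4 genes whose treated libraries all lay below the controls. They were picked after the values and the motif below were seen, all 4 hold the motif, and windows of other leading genes, including those without it, are not shown. Each window runs from 250 bases before to 50 after the gene start on the gene's strand, in build GRCm38.p6, which is not the build of the counts. Capitals mark TGACG, the core of the cAMP-response element, on either strand (CGTCA when reversed).

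Adamts1 (chr16:85803064-85803363, minus strand): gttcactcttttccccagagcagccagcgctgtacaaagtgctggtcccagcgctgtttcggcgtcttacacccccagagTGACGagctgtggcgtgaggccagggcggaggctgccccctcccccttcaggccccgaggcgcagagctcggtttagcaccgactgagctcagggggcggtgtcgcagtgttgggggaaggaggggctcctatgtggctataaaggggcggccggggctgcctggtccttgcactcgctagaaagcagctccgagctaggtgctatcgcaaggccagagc

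Cxcl1 (chr5:90890995-90891294, plus strand): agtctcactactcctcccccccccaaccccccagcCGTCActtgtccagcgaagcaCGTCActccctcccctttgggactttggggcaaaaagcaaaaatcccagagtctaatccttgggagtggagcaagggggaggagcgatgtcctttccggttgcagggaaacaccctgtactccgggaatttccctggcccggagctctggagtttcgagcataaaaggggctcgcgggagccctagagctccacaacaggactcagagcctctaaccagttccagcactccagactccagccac

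Id3 (chr4:136143572-136143871, plus strand): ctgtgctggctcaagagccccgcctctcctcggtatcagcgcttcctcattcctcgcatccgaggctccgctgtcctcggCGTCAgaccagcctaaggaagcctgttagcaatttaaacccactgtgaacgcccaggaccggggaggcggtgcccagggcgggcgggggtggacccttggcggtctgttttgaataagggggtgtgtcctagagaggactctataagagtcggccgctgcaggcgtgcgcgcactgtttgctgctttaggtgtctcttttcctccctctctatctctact

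Dusp1 (chr17:26508423-26508722, minus strand): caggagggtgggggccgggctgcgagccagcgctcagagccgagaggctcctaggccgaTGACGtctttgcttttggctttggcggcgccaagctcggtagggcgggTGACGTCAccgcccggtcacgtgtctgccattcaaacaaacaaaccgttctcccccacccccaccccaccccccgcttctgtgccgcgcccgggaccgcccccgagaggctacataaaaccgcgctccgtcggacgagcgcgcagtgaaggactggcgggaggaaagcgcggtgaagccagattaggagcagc

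TGACG occurred on at least 1 strand in 20.8% of 32851 promoter windows of the same length. The full palindrome TGACGTCA, which contains TGACG on both strands, occurred in 1.79% of windows and lies in that of Dusp1. Of the 10 genes with the lowest p-values among those lower in the treated libraries, 7 had a promoter entry and 3 of these held TGACG, and of the 10 among those higher, 3 had an entry and 1 held it. A match of letters describes the window and does not show that a factor binds there.

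Among genes with higher levels in the treated libraries, the differences at the head of the list were mostly in genes of low level. Papolg, a poly(A) polymerase gene, was at 5.67, 1.47 and 5.24 CPM in HGC and at 10.5, 9.60, 10.2, 12.4 and 7.51 CPM in the treated libraries. The groups did not overlap, and the log2 difference was 1.30 ± 0.35 (edgeR adjusted p = 0.544). Rtp4, an interferon-induced chaperone gene for receptor transport, averaged 4.39 and 9.96 CPM (1.18 ± 0.32), and Rrm2b, a ribonucleotide reductase subunit gene under p53 control, 3.70 and 8.94 CPM (1.29 ± 0.37). Kpna2, a nuclear import receptor gene, averaged 8.78 and 17.7 CPM.

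Celf4, an RNA-binding protein gene of neurons, was the most abundant of the 10 genes with the lowest p-values in this direction. It was at 105, 83.2 and 105 CPM in HGC and at 127, 118, 129, 128 and 143 CPM in the treated libraries, and each treated library lay above each control (0.40 ± 0.11, edgeR adjusted p = 0.544). HG1 held 127, 144 and 128 CPM of Celf4, which overlapped the treated libraries.

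**Figure D2:**
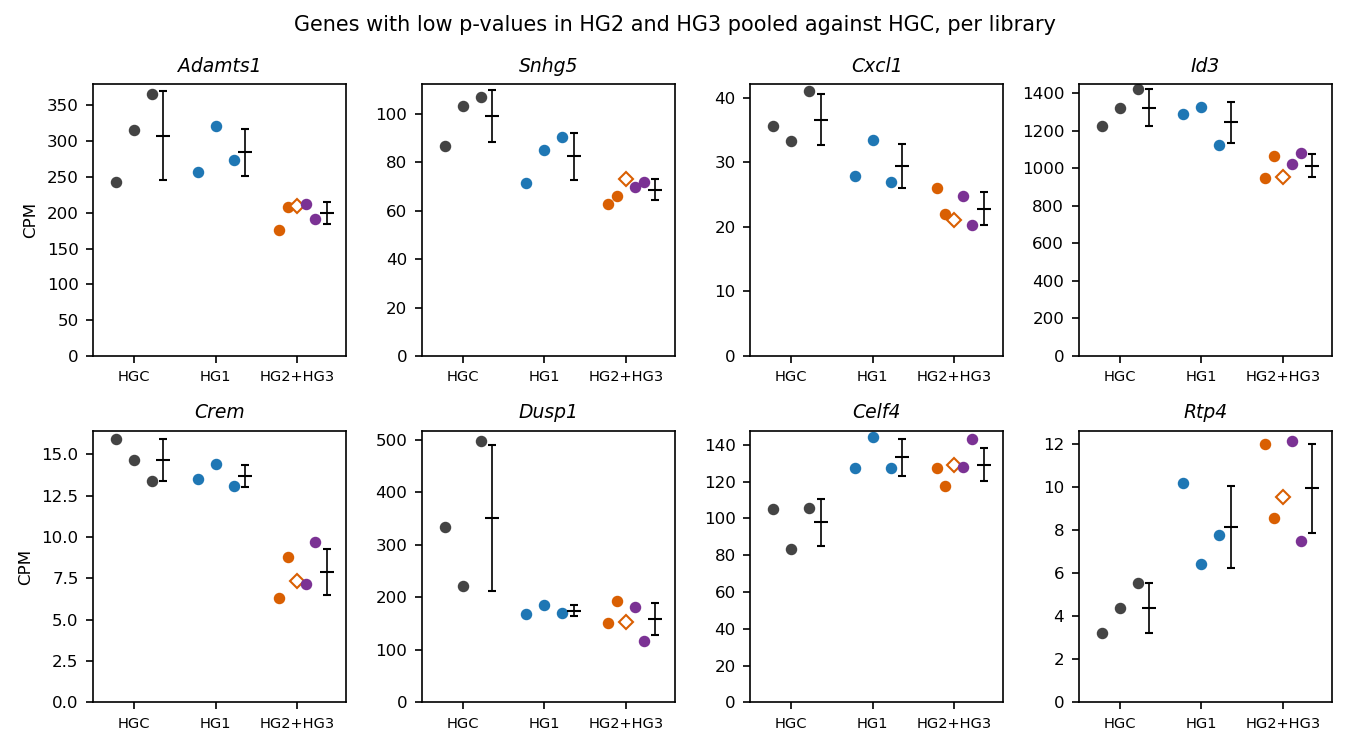
Level (CPM, linear axes from 0) of 8 genes with low p-values in each HGC, HG1 and treated library, with the mean and SD of each group as a bar to the right. Orange is HG2, purple HG3 and the open diamond the shared library. The 5 treated libraries lie below the 3 controls for Adamts1, Snhg5, Cxcl1, Id3, Crem and Dusp1 and above them for Celf4 and Rtp4, and no gene passed the threshold.

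The genes of glucose sensing and insulin action gave no call. Txnip, the thioredoxin-interacting protein gene that high glucose is known to raise, was at 85.1, 72.4 and 69.9 CPM in HGC and at 96.6, 91.6, 72.3, 86.5 and 109 CPM in the treated libraries. The groups overlapped, with a log2 difference of 0.27 ± 0.20 and a 95% interval from -0.16 to 0.69. Its relative Arrdc4 gave 0.43 ± 0.35. The glucose transporter gene Slc2a1 gave -0.04 (interval -0.35 to 0.28) and the hexokinase gene Hk2 0.12 (interval -0.17 to 0.41). The known rise of Txnip in high glucose was not seen in the controls. In HGC against NGC, 0 of 9 tested genes of glucose sensing, transport and sweet taste, Txnip among them, were higher at an unadjusted edgeR p under 0.05. At that p 1 was lower, beside 931 higher and 671 lower of all 12940 tested genes.

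Irs2, which encodes an adaptor of the insulin receptor, was at 113, 112 and 125 CPM in HGC and at 67.2, 103, 93.3, 93.1 and 69.8 CPM in the treated libraries. No treated library reached a control, and the log2 difference was -0.45 ± 0.19 (edgeR adjusted p = 0.742). Irs2 averaged 76.6 CPM in HG1. Pik3r3, a regulatory subunit gene of phosphoinositide 3-kinase, averaged 18.2 and 11.2 CPM with no overlap (-0.69 ± 0.21). The cytokine and leptin signal transducer genes Stat3 (364 and 293 CPM) and Jak2 (49.6 and 40.2 CPM) overlapped between the groups. The receptor genes Insr (-0.09 ± 0.21) and Igf1r (0.04 ± 0.11) had intervals that held 0. The leptin receptor gene Lepr and the sweet taste receptor gene Tas1r3 had too few counts to be tested.

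Gene lists were summarised by the number of members at an unadjusted p under 0.05 and by the median log2 difference, beside a median of 0 and a share of 6.34% over all tested genes. No list had a member past the threshold. The medians of the 40 lists with at least 3 tested members lay between -0.20, for glucose sensing, transport and sweet taste (9 tested), and 0.12, for hypothalamic peptides and receptors (6 tested).

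In the list of insulin, IGF, leptin and AMPK signalling, 21 of 33 tested members lay lower and 12 higher, with a median of -0.05. An unadjusted p under 0.05 was reached by 4 of the lower ones (Irs2, Pik3r3, Jak2 and Stat3) and by 1 of the higher ones, the IGF-binding protein gene Igfbp2. In the list of feedback regulators of ERK signalling 3 of 16 lay higher at that p and 3 lower, with a median of 0.05. Beside Dusp1, the lower ones were Ppp1r15a, which is in this list but is a stress response gene by function, and the transcription factor gene Etv1. Etv1 was at 0 to 0.60 CPM in the treated libraries. The higher ones were Spry2 (6.50 and 11.95 CPM), Dusp6 and Etv4, all induced by ERK as part of its negative feedback or output.

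Genes of lysosomes and autophagy lay lower more often than higher. Of 35 tested members 25 lay lower and 10 higher, 7 of the lower ones at an unadjusted p under 0.05 and none of the higher ones, and the median was -0.04. Psap, the precursor of the saposins that help degrade sphingolipids, was at 797, 1033 and 843 CPM in HGC and at 629, 664, 559, 635 and 713 CPM in the treated libraries. These groups did not overlap (-0.48 ± 0.16, edgeR adjusted p = 0.724, and 0.0204 to 1 over the alternatives). Ctsa, a lysosomal carboxypeptidase gene, averaged 60.4 and 46.5 CPM without overlap, and the autophagosome gene Map1lc3b 248 and 205 CPM with overlap. The protease gene Ctsd was at 438 and 437 CPM. HGC against NGC shares the HGC libraries, and there 30 of the 35 members lay higher and 5 lower, with 16 called higher. Against HG1, 17 lay higher and 18 lower. The part of the shared controls was not tested.

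Sterol synthesis and uptake had 16 of 25 members lower and a median of -0.05. In HGC against NGC, with the same HGC libraries, 25 members lay higher and 0 lower, with 15 called higher. Against HG1, 7 lay higher and 18 lower. Hmgcs1, which makes the precursor of the mevalonate pathway, averaged 258 and 220 CPM with no overlap (-0.23 ± 0.11), and the genes Fdft1 (44.9 and 33.1 CPM) and Mvk (66.5 and 52.3 CPM) of the same pathway overlapped. Srebf1, the transcription factor gene of lipid synthesis, averaged 23.5 and 32.1 CPM (0.46 ± 0.18). Of the 26 NRF2 targets, which respond to oxidative stress, 15 lay lower with a median of -0.11, and the peroxidase gene Gpx1 averaged 818 and 660 CPM without overlap.

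Stress, cell cycle and matrix lists had medians close to 0, as did the lysosome and sterol lists. The integrated stress response had 12 of 25 members higher and 13 lower (median -0.004), and its transcription factor gene Atf4 was at 434 and 433 CPM. Immediate early genes had 14 of 27 higher (median 0.03), with Fos at 31.4 and 37.8 CPM and Egr1 at 153 and 169. Mitosis genes had 19 of 28 lower (median -0.05), among them the cyclin gene Ccnb1 at 190 and 153 CPM. DNA replication had 18 of 33 higher (median 0.02), and p53 targets 12 of 22 lower (median -0.03).

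Collagens and matrix had 17 of 32 members higher (median 0.03). Matrix proteases and their inhibitors had 9 of 16 lower (median -0.04), with Adamts1, the stromelysin gene Mmp3 (796 and 682 CPM) and Mmp11 at an unadjusted p under 0.05, and with Adamts5 higher at that p. In inflammation and NF-kB, 13 of 24 lay lower (median -0.01), and the chemokine gene Cxcl12 averaged 1298 and 1154 CPM without overlap. Ribosome biogenesis had 17 of 28 higher (median 0.06) and cytosolic ribosomal proteins 25 of 40 lower (median -0.04), with Rpl27 and Rpl13 higher and Rpl3 and Rpsa lower at an unadjusted p under 0.05.

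Some nuclear RNAs and some markers of other cell types also differed between the groups. Of 7 tested nuclear long noncoding and related RNAs 6 lay lower (median -0.10), among them Neat1, the scaffold of paraspeckles, at 761 and 528 CPM (edgeR adjusted p = 0.544, and 0.000217 to 0.999 over the alternatives), and Snhg1 at 397 and 310 CPM. The pericyte marker gene Pdgfrb was at 293, 316 and 314 CPM in HGC and at 254, 253, 245, 247 and 265 CPM in the treated libraries, with no overlap, while the 9 tested fibroblast and pericyte markers had a median of 0.07. The summed level of 13 microglia and macrophage markers ranged from 160 to 176 CPM in the treated libraries and from 178 to 215 in HGC, most of it Tmem119 (149.5 and 175.5 CPM). Of its 4 tested members 2 lay lower, Tmem119 and Cd68 (4.52 CPM in HGC and 1.91 in the treated libraries), and 2 higher, Csf1r (6.60 and 12.5 CPM) and Cx3cr1 (3.18 and 3.67 CPM). Itgam had no count, and Aif1 was near 0. The part of these differences in the results above was not tested.

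**Figure D3:**
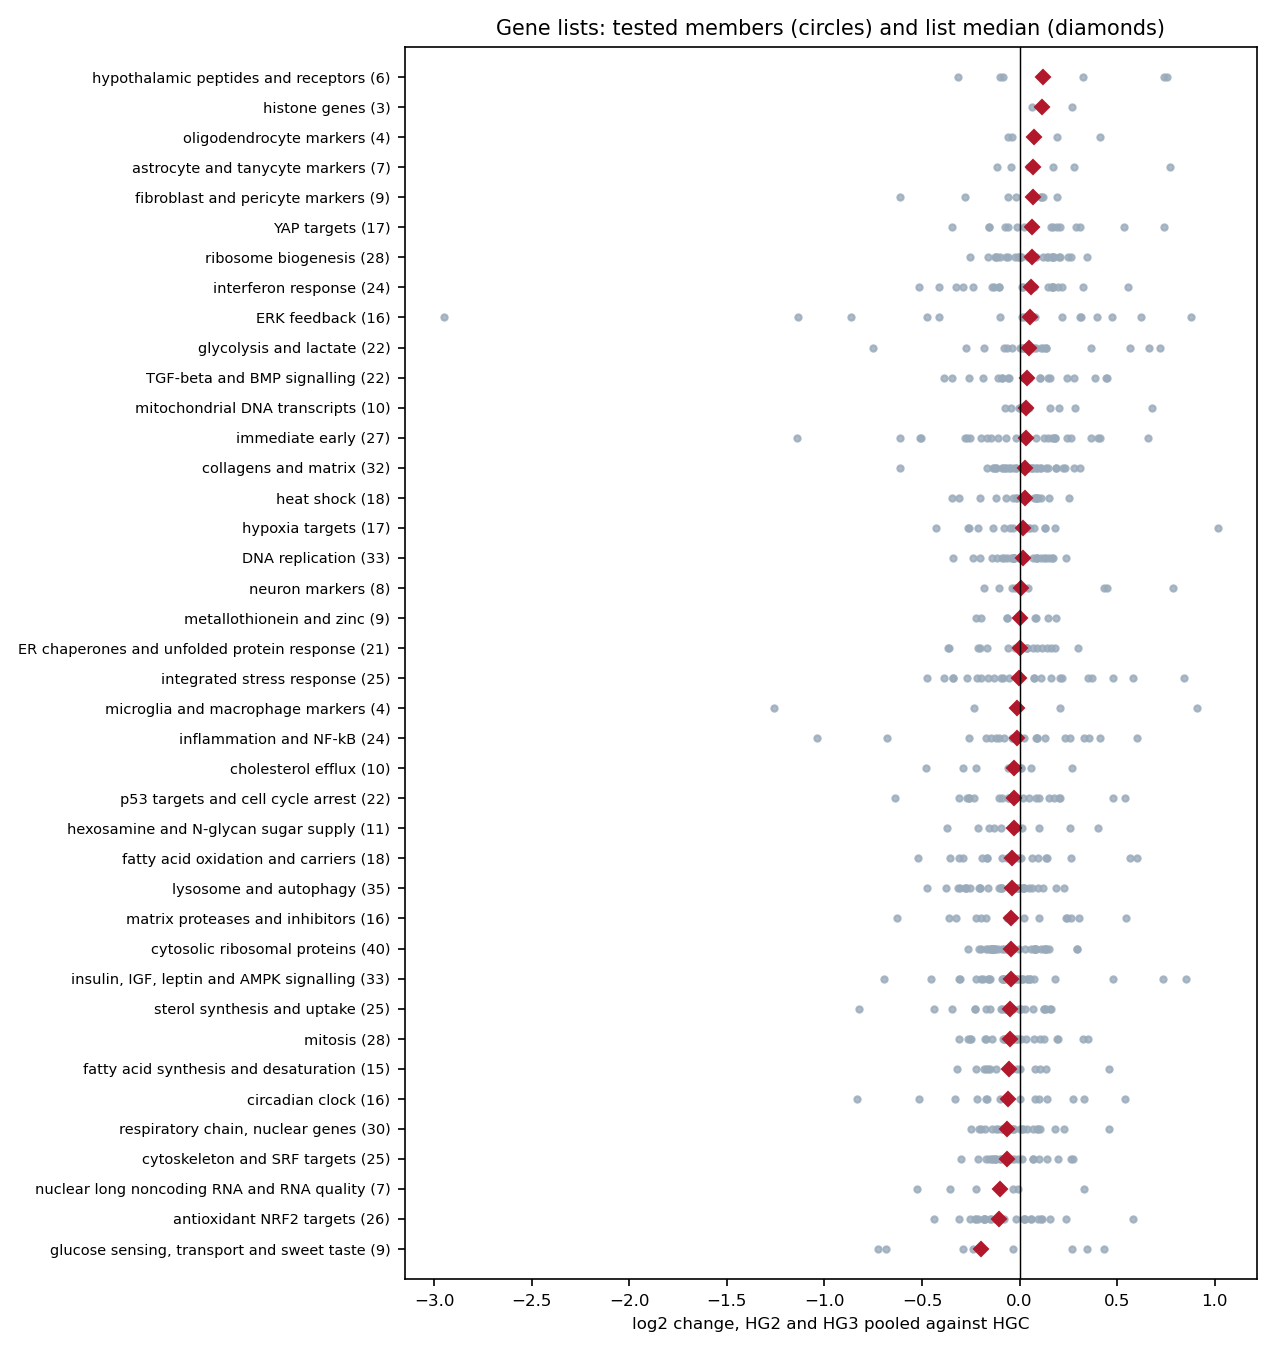
Log2 difference between the pooled treated libraries and HGC for the tested members (circles) of 40 gene lists and the median of each list (diamonds), with the number tested in brackets. The medians lie between -0.20 and 0.12, and none of the members passed the threshold.

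The next comparison set the pooled libraries against dose label 1 in the same medium. Here 87 of 12940 genes were called (0.672%), of which 61 were lower in HG2 and HG3 than in HG1 (0.471%) and 26 higher (0.201%). Among the lower ones were 14 of the 94 tested ribosomal protein genes, and none of the 94 was called higher. The number called rested on single libraries: it was 0 without HG1 replicate 2, 18 without HG1 replicate 1 and 230 without HG1 replicate 3. It was 30, 19 and 35 without HG2 replicates 1, 2 and 3, and 16 and 159 without HG3 replicates 1 and 3. DESeq2 called 250. HG1 replicates 1 and 2 are those that lay apart on the third principal component.

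The ribosomal protein gene Rps27a, which also encodes ubiquitin, was at 666, 809 and 542 CPM in HG1. It fell to 370, 323, 343, 371 and 465 CPM in the treated libraries, and the groups did not overlap (-0.84 ± 0.14, edgeR adjusted p = 0.00794). HGC held 407, 496 and 419 CPM of Rps27a, between the other groups in the mean. Ndufb3, a subunit of respiratory complex I, was at 205, 265 and 186 CPM in HG1 and at 142, 105, 116, 125 and 157 CPM in HG2 and HG3 (-0.76 ± 0.13, edgeR adjusted p = 0.0029). The controls of Ndufb3, at 130, 137 and 139 CPM, lay within the treated range. Fam162a, a hypoxia-induced mitochondrial gene, fell from 92.9 ± 19.0 CPM (SD, n = 3) to 52.9 ± 6.20 CPM (SD, n = 5), with a log2 difference of -0.81.

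Other genes that were lower than in HG1 encode respiratory chain and ATP synthase parts (Cox7c, Uqcrfs1, Ndufa6, Atp5j and mt-Cytb). Against HGC the log2 differences of these genes were 0.001, -0.09, -0.19, -0.03 and 0.004 in that order. Of 30 tested members of the list of nuclear respiratory chain genes, 2 were called lower than in HG1 and 0 higher. Also lower were the lysosomal membrane protein gene Lamp1 (686 and 460 CPM) and the cell cycle inhibitor gene Cdkn1b (510 and 337 CPM). Ndufa12, another complex I gene, rose from 132 to 193 CPM, so the respiratory chain genes did not all move one way. Adamts1 fell in this comparison too, from 284 to 199 CPM (-0.51 ± 0.12, edgeR adjusted p = 0.0417), with no overlap.

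Genes that rose against HG1 included Lmnb1, which encodes a protein of the nuclear lamina, from 269, 227 and 254 CPM to 357, 416, 362, 384 and 386 CPM (0.61 ± 0.11, edgeR adjusted p = 0.00509). Each treated library lay above each HG1 library. Ociad1, a mitochondrial and endosomal protein gene, rose from 60.0 to 101 CPM, and Atf5, a stress-responsive transcription factor gene, from 52.8 to 87.9 CPM. By fitted size the 5 largest rises were Gm6204 (1.31), Ppp1ccb (1.25), the interferon-induced gene Bst2 (1.23), Rps10-ps2 (1.14) and Ubald2 (1.03), on the log2 scale.

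The 5 largest falls were Man1c1, a mannosidase gene of the Golgi (-1.07), Gm37274 (-1.05), Gm49221 (-1.05), Gm28791 (-1.05) and the glutathione transferase gene Gstp1 (-1.04). Of the genes named here, some belong as background to families with near-identical copies, such as Gstp1 and the ribosomal protein genes with their pseudogenes. Their counts are uncertain where reads could be split between copies, which was not measured. In 82 of the 87 genes the libraries of the groups did not overlap, beside 4.55% of all tested genes lower and 4.3% higher without overlap. Since HG1 and the pooled libraries chose these genes, the place of HGC is a description: its mean lay between the other group means in 78 of the 87. Against HGC, a comparison that shares the pooled libraries, 24 of the 87 had an unadjusted edgeR p under 0.05, beside 6.34% of all tested genes. HG1 against HGC, which shares libraries with both other comparisons, called 0 genes (0%) by edgeR, with 1013 at an unadjusted p under 0.05 (7.83%).

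Short transcripts were frequent among the genes that fell against HG1. The median transcript length was 1618 bases for the 60 genes with a length that fell and 2843 for the 25 that rose, beside 3252 over all tested genes. Over all tested genes with a length, the Spearman correlation of the log2 difference to HG1 with transcript length was -0.01. The part of transcript length in these calls was not tested.

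**Figure D4:**
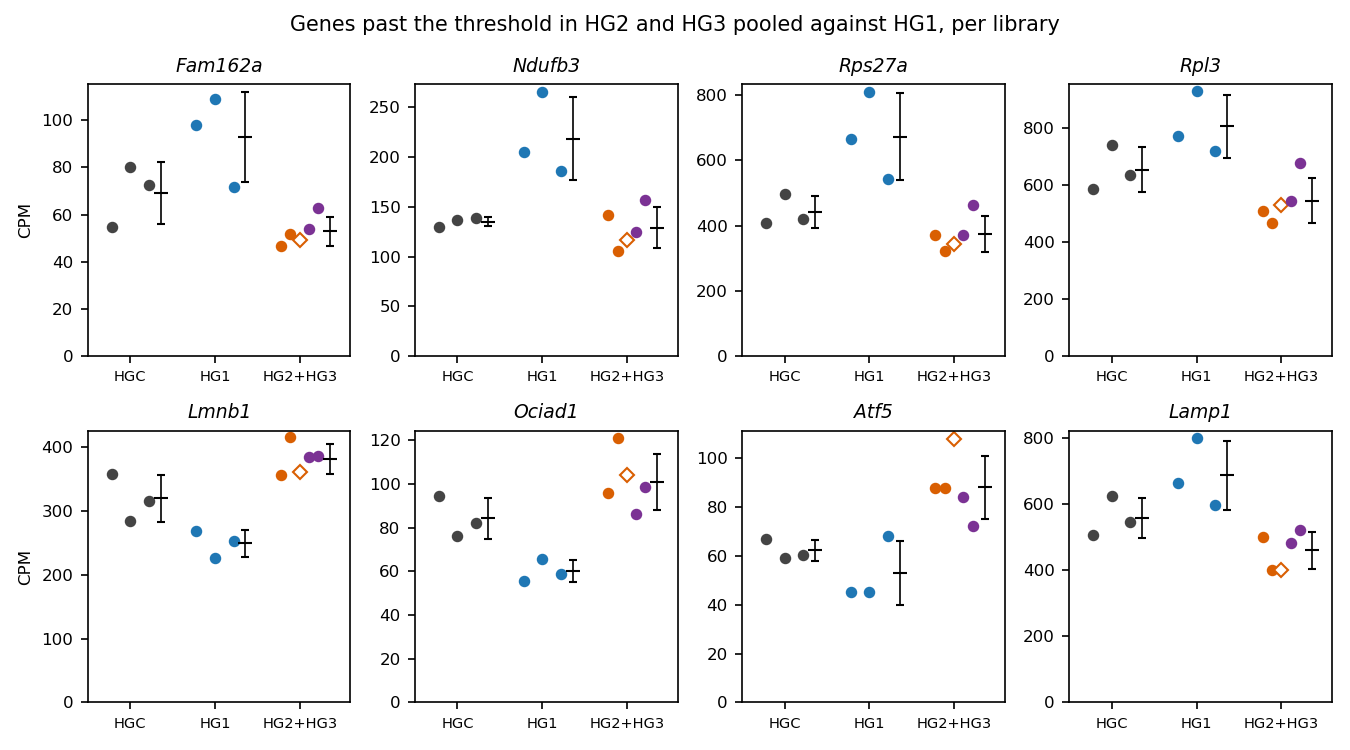
Level (CPM, linear axes from 0) of 8 genes called in HG2 and HG3 pooled against HG1, in each HGC, HG1 and treated library, with the mean and SD of each group. Symbols are those of the plot of genes with low p-values against HGC. HG1 lies above the treated libraries for Fam162a, Ndufb3, Rps27a, Rpl3 and Lamp1 and below them for Lmnb1, Ociad1 and Atf5, without overlap.

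A further comparison asks whether dose labels 2 and 3 acted differently in the media, by an interaction of the pooled difference to HGC with the mean difference of NG2 and NG3 to NGC. It called 4 genes of 12940 (0.0309%): Celf4, Mrps5, Itm2c and Lxn. Celf4 was at 150, 148 and 148 CPM in NGC, and between 99.5 and 124 CPM in the 6 libraries of NG2 and NG3, below every NGC library. In high glucose it stood the other way, as given above, and the interaction was 0.85 ± 0.15 on the log2 scale (edgeR adjusted p = 0.0156). Mrps5, a mitochondrial ribosomal protein gene, averaged 99.4 CPM in NGC, 73.2 in NG2 and 64.6 in NG3. In high glucose Mrps5 was at 77.6 CPM in HGC and 92.5 in the pooled libraries, and the interaction was 0.79 ± 0.16 (edgeR adjusted p = 0.0491).

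The other pair of genes had the opposite pattern. Itm2c, a membrane protein gene expressed in brain, averaged 99.1 CPM in NGC, 134 in NG2 and 137 in NG3, but 138 in HGC and 111 in the pooled libraries. Its interaction was -0.76 ± 0.14 (edgeR adjusted p = 0.0249). Lxn, which encodes latexin, a carboxypeptidase inhibitor, averaged 186 CPM in NGC, 267 in NG2 and 257 in NG3, and 331 in HGC and 275 in the pooled libraries. Its interaction was -0.76 ± 0.15 (edgeR adjusted p = 0.0289). The levels at dose label 1 are a description, since they are set against the same control libraries that helped to choose these genes. At dose label 1, Celf4 averaged 115 CPM in NG1 and 133 in HG1, and Itm2c 119 and 111, each on the same side of its control. Mrps5 averaged 81.3 CPM in NG1 and 82.9 in HG1, and Lxn 238 and 327, the latter close to HGC. An interaction at dose label 1 was not tested.

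The interaction count was not stable to single libraries. It was 0 without NGC replicate 1 or 2, 28 without NGC replicate 3, 2 and 19 without NG2 replicates 1 and 2, and 20, 17 and 11 without NG3 replicates 1, 2 and 3. It was 1 and 2 without HGC replicates 2 and 3, and 2 and 1 without HG2 replicates 1 and 3. DESeq2 called 98. Under the 23 alternative fits Celf4 was called in 20, Itm2c in 17, Lxn in 15 and Mrps5 in 8, each with the same sign throughout.

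In normal glucose the mean of NG2 and NG3 against NGC called 23 genes (0.178%), of which 17 fell (0.131%) and 6 rose (0.0464%). Those that fell include genes of ribosome assembly, such as Nop56, Nop58, Dkc1, Rrp1b and Esf1, and of translation initiation, such as Eif3a, Eif3j1 and Eif2s2. The normal-glucose and high-glucose comparisons share no library. Of the 23 genes 21 had the opposite sign in HG2 and HG3 pooled against HGC, where 53.8% of all tested genes had opposite signs, and 4 of the 23 reached an unadjusted p under 0.05 there. These 4 are the genes called in the interaction, which uses the same normal-glucose libraries. Nop56, a core protein of nucleolar particles, averaged 102 CPM in NGC, 69.0 in NG2 and 69.2 in NG3, and 87.6 in HGC and 101 in the pooled libraries, where it gave a log2 difference of 0.20 ± 0.13 (unadjusted p = 0.135). Dkc1, the pseudouridine synthase gene dyskerin, gave -0.55 ± 0.10 in normal and 0.17 ± 0.11 in high glucose, with an interaction of 0.72 (edgeR adjusted p = 0.0573).

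**Figure D5:**
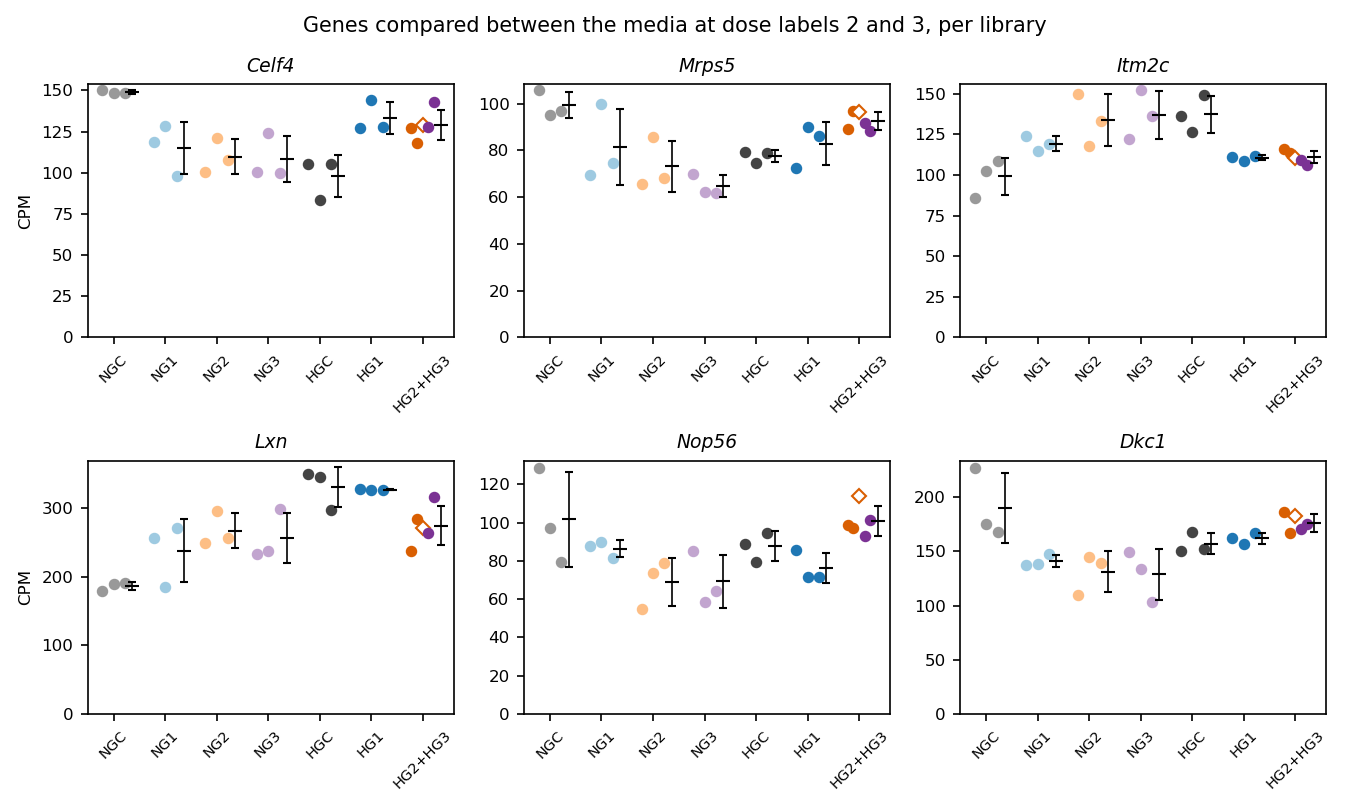
Level (CPM, linear axes from 0) of the 4 genes called in the interaction and of Nop56 and Dkc1 in every library of the 7 groups used, with the mean and SD of each group. The NG2 and NG3 libraries lie below all NGC libraries for Celf4 and Mrps5 and above them for Itm2c and Lxn, and in high glucose the pooled mean lies on the other side of the HGC mean for these 4 genes.

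Pooling rests on HG2 and HG3 being alike, which was compared with the shared library left out and 2 libraries in each group. HG3 against HG2 gave 0 calls of 13281 genes (0%) by edgeR and 0 by DESeq2, with 477 genes at an unadjusted p under 0.05 by edgeR (3.59%) and a smallest adjusted p of 0.999. The median standard error was 0.29 on the log2 scale, so differences of moderate size could not be detected. The lowest p-value belonged to the complement gene C4b, at 5.70 and 5.45 CPM in HG2 and at 0.53 and 0.83 CPM in HG3. Suv39h1, a histone methyltransferase gene, was at 40.8 and 37.4 CPM in HG2 and at 61.4 and 59.5 CPM in HG3. Each of HG2 and HG3 alone called 0 genes against HGC (0%) by edgeR, with 710 (5.35%) and 599 (4.51%) at an unadjusted p under 0.05.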

How the data were processed

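RNA-seq libraries were compared from the read counts per gene that the authors deposited, 1 file per library, not normalized. RNA was polyadenylated, extracted with a PureLink kit and made into libraries with a VAHTS kit, per the labels' protocols. Tools listed in the submitters' processing notes are STAR 2.7.5c, HTSeq 1.99.2, FastQC 0.11.9 and DESeq2 3.16, with build GRCm39. The sources used here do not give how strand was treated in counting, and reads of genes that overlap in antisense may therefore be mixed. The 5 HTSeq summary lines stayed out of library sizes and tests. Symbols were found for 51948 of 56941 gene IDs, which hold 91.9% of gene counts.

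Counts were fitted with edgeR 4.0.16 in R 4.3.3 (TMM factors, default low-count filter, robust quasi-likelihood tests), with Benjamini-Hochberg adjustment over all tested genes at 0.05. The fit held 23 libraries in 7 groups, HG2 and HG3 being 1 group, with 16 residual degrees of freedom and a biological coefficient of variation of 14.5%. HG3 against HG2 used 22 libraries in 8 groups. At this depth the median standard error was 0.20 to 0.21 on the log2 scale for the pooled libraries against HGC or HG1. CPM values are means ± SD over libraries and log2 differences are ± standard error. The pipeline was tested on simulated data.

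The members, the 41 gene lists and the tests were chosen with earlier results of these data known. The genes named were the called ones and the 10 of lowest p in each direction with at least 5 CPM, up to 3 members of each list by lowest p and a fixed set of 20 genes. Against HG1 the 5 largest rises and falls were taken, and for the interaction and HG3 against HG2 the 5 genes of lowest p. Of these, the genes described were narrowed after the values were seen, and some are not reported here. Chosen after the values were seen, outside this rule, were Nop56 and the other genes of the normal-glucose comparison that the interaction did not give, and in the comparison with HG1 all genes but the 5 largest rises and falls. Alternatives were DESeq2 1.42.0, RLE factors, a fit of only the groups compared, no low-count filter, each library left out in turn, a block on the replicate number, the libraries that stood apart left out, and the shared file placed in HG2 or HG3. Between HGC and the pooled libraries, replicates with the same number did not deviate together, and other groups were not checked. Promoter sequences are those of RefSeq in build GRCm38.p6.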

Additional observations from a re-analysis of the deposited data

Results flagged for a closer look

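Among the 5 treated libraries, 1 lay apart from the other 4 in 11 of 166 named genes, where chance gives about 1 in 20. HG2 replicate 1 held the highest level of the insulin receptor gene Insr (20.7 CPM), of Igf1r (262 CPM) and of the YAP target Ccn1 (156 CPM), and the lowest of the clock gene Cry1 (5.70 CPM). The shared library, HG2 replicate 3, stood apart for Pdgfra (45.5 CPM), the metallothionein gene Mt2 (399 CPM) and Snhg12 (46.2 CPM). HG3 replicate 1 stood apart for Ndrg1 (40.2 CPM), Hmgcs1 (178 CPM) and Gm49221 (7.67 CPM), and HG3 replicate 3 for the heat shock gene Hspa1b (51.7 CPM).

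The difference between the media in the response to dose labels 2 and 3, each against its own control and tested as an interaction, passed the threshold in 4 genes. It was 0.85 for Celf4, 0.79 for Mrps5, -0.76 for Itm2c and -0.76 for Lxn on the log2 scale.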

How the results depend on the processing

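HG2 and HG3 pooled against HGC called 4 genes with no low-count filter, 8 with only the groups compared and 0 to 1 with each library left out. Against HG1 the count of 87 became 250 with DESeq2, 263 with no low-count filter, 420 with only the groups compared, 200 without the libraries that stood apart (HGC replicate 2 and NG3 replicate 3) and 0 to 230 with each library left out. The interaction count of 4 became 98 with DESeq2, 81 with no low-count filter, 1 with only the groups compared, 13 without the libraries that stood apart and 0 to 28 with each library left out. HG3 against HG2 stayed at 0 in all fits. The cause of these shifts was not tested.

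With the replicate number as a block, the counts were 0 against HGC, 108 against HG1, of which 79 were among the 87, 4 for the interaction and 0 for HG3 against HG2. Between HGC and the pooled libraries, with the shared file under its HG2 number, same-numbered libraries correlated at -0.08 to 0.05 in their deviations. Differently numbered ones correlated at -0.04 to 0.10, so the numbers gave no pairing between these groups. The other groups were not checked in this way.

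Against HGC some genes near 0 changed sign, none of them called. Atf4 became 0.001 with DESeq2 and with RLE factors, 0.002 with only the groups compared, 0.018 with the block that puts the shared file under number 2, 0 with that file in HG3, and -0.103 to 0.112 with a library left out. Ctsd became 0.004 with DESeq2, RLE factors and only the groups compared, 0 with no low-count filter and with the shared file in HG3, 0.013 with that block, 0.055 without the libraries that stood apart and -0.037 to 0.054 with a library left out. Cox6a2, under 4 CPM in HGC, became -0.386 without the libraries that stood apart and -0.001 with the shared file in HG2, and -0.386 to 1.144 with a library left out. Without the libraries that stood apart, Ccn1 became -0.108, Igf1r -0.038 and Slc2a1 0.025. With a library left out Ccn1 ranged from -0.108 to 0.662, Igf1r from -0.038 to 0.122, Slc2a1 from -0.088 to 0.024 and Insr from -0.239 to 0.002. Counts at this depth limit genes of low level. For the count in normal glucose no alternatives were run.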
